A study of Mus musculus with 4 samples.

Results

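BCL6 sites that lie between genes, outside repeats and within reach of a promoter were examined in mouse adipocyte nuclei. A site belonged to this group if the authors' annotation placed it in intergenic sequence with no repeat, more than 1 kb and at most 50 kb from the nearest annotated promoter. The inguinal list held 283 such peaks among 1785, and the perigonadal list 578 among 3956, so that 861 of 5741 listed peaks were studied. They stand for 760 distinct places, because 101 pairs of peaks, 1 from each list, cover the same place.

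The peaks came from chromatin immunoprecipitation sequencing of C57BL/6 mice carrying Adipoq-Cre and Sun1-sfGFP-myc. Both depots came from this genotype. Adipoq-Cre is active in mature fat cells, where it switches on a tagged protein of the nuclear membrane, so that adipocyte nuclei can be pulled from whole fat with beads against the myc tag. The fat under the skin of the groin (inguinal) and around the gonads (perigonadal) was each represented by 1 BCL6 library, made with a custom polyclonal guinea pig antibody, and by 1 input library that was not analysed here. The age, sex and number of the mice and whether tissue was pooled are not given in the sources used here. Peak lists hold no expression values, so the adipocyte label could not be checked against marker levels.

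BCL6 is a zinc finger repressor that recruits corepressors and histone deacetylases to DNA. Its recognition sequence resembles that of the STAT transcription factors, and in liver and fat it is known as a counterpart of STAT5 in the response to growth hormone. Intergenic sites near a gene are where many enhancers lie. The nearest promoter is only the closest one along the chromosome, and it need not be the gene that a site acts on.

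No genome sequence was at hand, but RefSeq promoter windows of mouse build GRCm38.p6, which shares its chromosomes with the mm10 build of the lists, run from 250 bases before to 50 after a transcription start. Of the peaks studied, 3 inguinal and 8 perigonadal ones touched such a window, mostly of genes that the authors' annotation had not used as the nearest promoter. The stretches that these peaks cover are the part of their sequence that can be read directly. Shown are 3 windows that hold the BCL6 and STAT core TTCNNNGAA, whose matches are in capitals. The core reads the same on both strands. It includes the stricter form TTCCNNGAA, which does not. Each stretch is given 5' to 3' on the strand of the window's gene, the minus strand in all 3.
Gm42190 (chr3:19953915-19954117, inguinal peak near Cp): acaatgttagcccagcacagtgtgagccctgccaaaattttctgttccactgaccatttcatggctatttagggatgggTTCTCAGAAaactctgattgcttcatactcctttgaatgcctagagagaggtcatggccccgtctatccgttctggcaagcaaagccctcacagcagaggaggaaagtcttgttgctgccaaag
Fcor (chr8:3672359-3672543, perigonadal peak near Trappc5): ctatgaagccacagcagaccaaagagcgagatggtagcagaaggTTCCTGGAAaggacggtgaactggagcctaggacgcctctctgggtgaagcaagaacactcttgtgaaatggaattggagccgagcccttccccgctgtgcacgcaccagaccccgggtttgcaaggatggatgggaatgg
Gm52185 (chr15:78417223-78417354, part of the perigonadal peak near Mpst): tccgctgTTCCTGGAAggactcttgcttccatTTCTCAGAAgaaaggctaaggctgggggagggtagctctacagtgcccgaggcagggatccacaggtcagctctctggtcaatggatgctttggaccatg

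Fcor encodes a corepressor of FOXO1 that was described in mouse fat. The perigonadal peak on its window scored 20.3, was centred 60 bp before the start and had no inguinal partner, and the authors' list names Trappc5, 4.03 kb away. The inguinal peak on the Gm42190 window, 3.04 kb upstream of Cp, the ceruloplasmin gene, scored 21.8 and had no perigonadal partner. The peak on the Gm52185 window scored 16.7 in the perigonadal list, with no inguinal partner.

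The strict core TTCCNNGAA was found in 2 of the 11 windows under these peaks, those of Fcor and Gm52185. Among all 32851 RefSeq promoter windows of the same length it was found in 3.03%. Both counts cover only the strand of each window's gene, and the reverse complement of the strict form was not searched. The looser TTCNNNGAA was found in 4 of 11 and in 8.30% of all windows. The exact TTCCTAGAA, searched on both strands, was found in 0 of 11 and in 0.411%. Several windows overlap, since 3 of the 11 lie under a single peak. That perigonadal peak, with a score of 15.0, is listed 20.2 kb upstream of Capn15, a calpain gene. Along each gene's own strand, RefSeq places alternative Capn15 starts 50 and 128 bp before its centre and the start of 1700022N22Rik 84 bp after it. The peak is annotated as a CpG island and holds no match to the core.

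More widely, 75 of 283 inguinal peaks (26.5%, Wilson 95% interval 21.7 to 31.9%) and 142 of 578 perigonadal peaks (24.6%, 21.2 to 28.2%) lay inside a RefSeq gene, although the authors' annotation calls them intergenic. Of these, 30 and 53 overlapped a protein-coding gene, and 40 and 85 a long non-coding RNA gene and no coding gene. The peak near Per1 lies inside the RefSeq model of Per1 itself, and the peak near Insig1 inside the non-coding gene Gm35223. The tall pair near Ripor3 (listed as Fam65c), with 39.9 in inguinal and 26.4 in perigonadal fat, lies inside Ripor3. Within 1 kb of a start in the RefSeq promoter table, which does not hold every gene, lay at least 7 inguinal and 21 perigonadal peaks. Intergenic here means intergenic in the annotation that the authors used.

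The tallest sites were found in both depots. The score is the authors' value for each peak and was read as sequenced tags after scaling, with 0.752 to a tag for inguinal and 0.881 for perigonadal fat. Brackets give exact Poisson 95% intervals, which cover counting error only, since without molecular identifiers several reads can stem from 1 molecule. Each list has its own scale, so that paired scores describe a site and are not compared as levels.

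The site 38.8 kb upstream of Ahctf1, a nuclear pore gene, was the tallest of the group in each list, at chr1:179842676-179842878. Its scores were 79.7 (65.3 to 96.4) and 106.7 (88.5 to 127.4), and it ranked 4 in either whole list. Zfp292, which encodes a large zinc finger protein, had a site 3.86 kb upstream that scored 60.9 (48.4 to 75.7) and 74.1 (59.1 to 91.7). It is annotated as a CpG island. 

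Other tall pairs lay near genes of varied kinds. The site 1.14 kb upstream of Dpp9, which encodes a dipeptidyl peptidase, had 37.6 in inguinal and 55.5 in perigonadal fat. Sites 30.6 kb upstream of Fam50b, 12.9 kb upstream of St3gal6, a sialyltransferase gene, and 15.4 kb upstream of Hnrnpd, which encodes an RNA-binding protein, scored 36.1, 34.6 and 32.3 in the inguinal list. Their perigonadal scores were 45, 49.4 and 44.1. The site 7.76 kb upstream of Gbp11, an interferon-induced guanylate-binding protein gene, scored 30.1 and 33.5. These sites rested on 40 to 50 tags in inguinal and 38 to 63 in perigonadal fat.

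The remaining tall pairs included sites near non-coding genes. Dio3os, which runs antisense to the deiodinase gene Dio3, had a site 14.7 kb away with 31.6 and 30.0. A730043L09Rik, 21.4 kb away, had 28.6 and 44.1, and Gm29684, 7.02 kb away, had 27.8 and 31.7. Rgs8, a regulator of G protein signalling, had a site 17.3 kb upstream with 29.3 and 29.1.

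**Figure D1:**
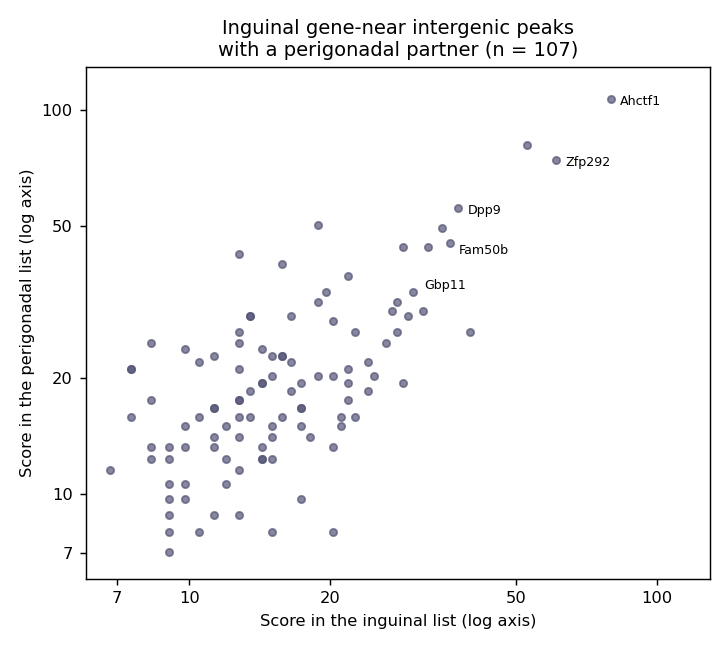
Score of each of the 107 inguinal gene-near intergenic peaks that has a perigonadal partner (x axis) against the score of that partner (y axis), both on log axes. Each point is a site; 5 of the tallest are named, and Ahctf1 and Zfp292 stand at the upper right of the cloud.

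Of the 20 tallest inguinal peaks of the group all 20 had a partner, and of the 20 tallest perigonadal ones 18 had, while 12 pairs were among the 20 tallest in both. The 2 scores of the 101 pairs, on a log2 scale, had a Pearson correlation of 0.70, and a Spearman correlation of 0.60. The points are sites of the same 2 libraries and not replicates, so that no p-value is attached. The centres of paired peaks lay a median of 26 bp apart and at most 126 bp, and in 100 of 101 pairs both lists named the same nearest gene.

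A few sites fell in the group in 1 depot only because of where the peak's centre lay. There were 6 inguinal peaks and 1 perigonadal peak whose partner was not intergenic outside repeats. The inguinal peak near Atrnl1, at -1010 bp from the promoter with a score of 24.8, had a partner at -975 bp that counts as a promoter peak, with 20.3. Near Sparc, a matrix glycoprotein gene, the inguinal peak of 20.3 at 45.2 kb had a perigonadal partner of 28.2 that was assigned to a SINE repeat. The others lay near Klhl24, Gm8013, Tprg and Fam53a in inguinal and Strip2 in perigonadal fat.

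Some tall peaks had no partner. Among inguinal peaks the leaders were Ddit4, an inhibitor of mTORC1, with 23.3 at 30.2 kb (15.8 to 33.1), and Vmn1r3, a vomeronasal receptor gene, with 23.3 at 46.9 kb. Cp followed with 21.8 and the non-coding Gm29685 with 20.3. Rsad2, an interferon-induced antiviral gene, had 19.6 at 19.9 kb, and Gsc, Nrep and Atp2a2, the last a calcium pump gene, had 18.1 each. A second Ddit4 peak at 35.5 kb, with 12.8, did have a perigonadal partner, of 17.6.

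In the perigonadal list Bnip3, whose product marks mitochondria for removal, led with 36.1 at 9.85 kb upstream (25.9 to 49.0). Sfxn3, which encodes a mitochondrial serine carrier, had 35.3 at 11.1 kb, inside the RefSeq gene Pdzd7. Per1, a repressor of the circadian clock, had 27.3 at 2.02 kb upstream (18.6 to 38.8). Socs3, an inhibitor of cytokine signalling, had 25.6 at 33.5 kb (17.1 to 36.7). Ino80c, a chromatin remodeller gene, and Asprv1 had 25.6 each, Foxo6, a forkhead gene, had 22.9, and Hid1 had 22.0. A missing partner says that no peak is in the other list, and each depot had a single library, so no difference between depots was tested.

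Gene-near intergenic peaks tended to be taller than other peaks of the same list. Those other peaks, the rest of the list, include peaks in repeats, which the rule keeps out of the group. Promoter and exon peaks were not compared on their own. The median score was 9.78 against 9.03 in the rest of the inguinal list, and 9.70 against 8.82 in the rest of the perigonadal list. In tags these medians were 13 against 12 and 11 against 10. Above the third quartile of the whole list, which is 12 in inguinal and 10.6 in perigonadal fat, lay 101 of 283 inguinal peaks (35.7%, 30.3 to 41.4%) and 22.0% of the rest. The difference was 13.7 percentage points, with a Newcombe 95% interval of 7.87 to 19.7. In the perigonadal list 199 of 578 lay above it (34.4%, 30.7 to 38.4%), and 22.2% of the rest, a difference of 12.2 points (8.17 to 16.4). With repeats kept in the group, 28.4% of inguinal and 28.5% of perigonadal peaks lay above it.

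The share above the third quartile was also larger than at the most similar positions. Distal intergenic peaks outside repeats, beyond 50 kb from a promoter, passed the third quartile in 22.2% of 284 inguinal and 26.4% of 588 perigonadal cases. The gene-near peaks exceeded these by 13.5 points (6.05 to 20.8) and 8.07 points (2.79 to 13.3). Intronic peaks outside repeats passed it in 25.3% of 673 and 26.3% of 1443 cases, which the gene-near peaks exceeded by 10.4 points (4.08 to 17) and 8.10 points (3.67 to 12.6). Gene-near intergenic peaks in repeats were the lowest, with 8.57% of 105 and 15.0% of 254. These intervals treat peaks as independent and cover counting error only. Median scores lay closer together. Distal and intronic peaks outside repeats each had 9.03 in inguinal fat, and 8.82 and 9.70 in perigonadal fat. The perigonadal intronic median equals that of the group.

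**Figure D2:**
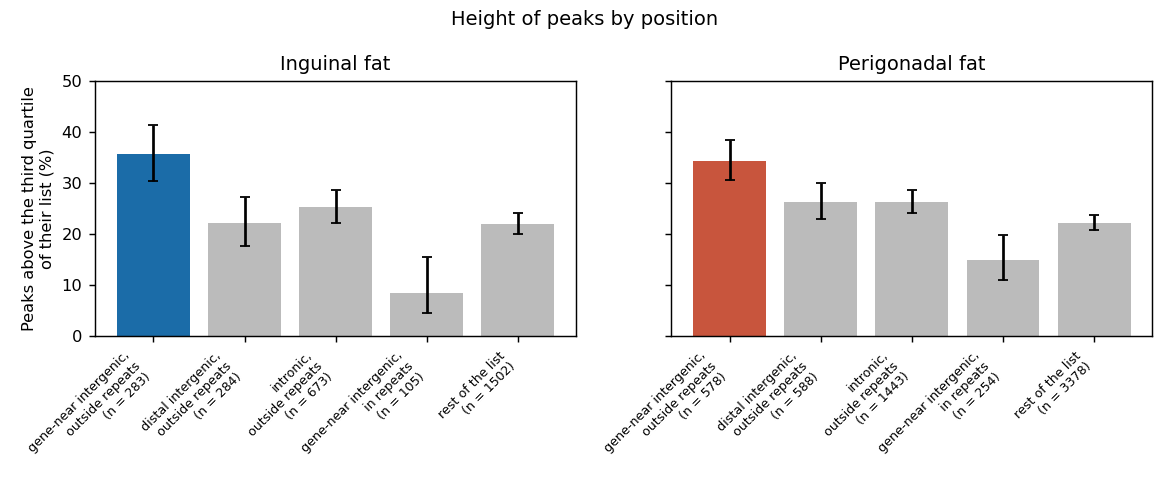
Share of peaks whose score exceeds the third quartile of their own list (y axis, percent) by position, in the inguinal list (left) and the perigonadal list (right). Bars are shares and lines Wilson 95% intervals. The coloured bars, gene-near intergenic peaks outside repeats, stand at 35.7% and 34.4%, above the grey bars shown. Promoter and exon peaks have no bar of their own and are part of the rest of the list.

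Being taller went with being found in both depots. A partner, meaning an overlap of at least 1 bp with any peak of the other list, was present for 107 of 283 inguinal peaks (37.8%, 32.4 to 43.6%) and 26.7% of the rest, a difference of 11.1 points (5.20 to 17.3). In the perigonadal list it was 102 of 578 (17.6%, 14.8 to 21.0%) and 12% of the rest, a difference of 5.63 points (2.52 to 9.11). Against distal intergenic peaks the differences were 6.82 points (-0.99 to 14.5) and 2.85 points (-1.39 to 7.09), intervals that include 0.

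Weighted to matched height the gap was narrower. In low inguinal peaks the group had the larger share, and in inguinal peaks of 13 to 24 tags the smaller one. Up to 10 tags, 4 of 46 inguinal peaks had a partner (8.70%), and 3.47% of the rest (difference -0.66 to 17 points), and at 11 to 12 tags 11 of 80 (13.8%), and 7.62% of the rest (-0.23 to 15.5). These classes hold 44.5% of the inguinal group. Pooled, a step chosen after the data were seen, they gave 15 of 126 (11.9%), and 57 of 921 in the rest (6.19%), a difference of 5.72 points (0.84 to 12.7). The same pooling in perigonadal fat gave 13 of 379 (3.43%), and 81 of 2627 in the rest (3.08%), a difference of 0.35 points (-1.25 to 2.77). Among inguinal peaks of 13 to 16 tags, 17 of 56 had a partner (30.4%), and 33.6% of the rest. Among those of 17 to 24 tags it was 39 of 60 (65.0%), and 71.7% of the rest, a difference of -6.68 points (-20.7 to 6.29). Among those of more than 24 tags it was 36 of 41 (87.8%), and 86.1% of the rest. In perigonadal fat the values were 16 of 89 (18.0%) and 21.8% at 13 to 16 tags, and 38 of 49 (77.6%) and 77.8% at more than 24 tags. With the classes kept apart, all 10 intervals of the difference, 5 classes in each list, included 0. The widest gap was in the class of 17 to 24 perigonadal tags, 57.4% and 46.5% of the rest, a difference of 10.8 points (-3.11 to 24). With the rest weighted to the heights of the group, its share came to 37.0% beside 37.8% in inguinal, and to 16.9% beside 17.6% in perigonadal fat.

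**Figure D3:**
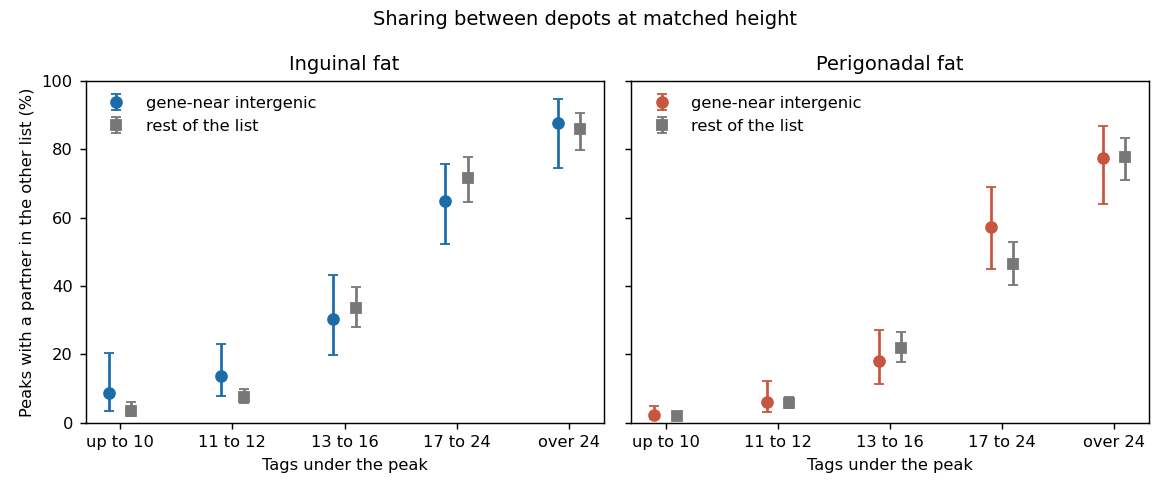
Share of peaks with a partner in the other list (y axis, percent) by the number of tags under the peak (x axis), for gene-near intergenic peaks (coloured circles) and the rest of the list (grey squares), inguinal left and perigonadal right. Lines are Wilson 95% intervals; both shares are under 10% at up to 10 tags and reach 87.8% and 86.1% in inguinal and 77.6% and 77.8% in perigonadal fat at over 24 tags.

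Most of the peaks lay upstream of the nearest promoter, 200 of 283 in inguinal (70.7%, 65.1 to 75.7%) and 446 of 578 in perigonadal fat (77.2%, 73.6 to 80.4%). A position downstream of a promoter counts as intergenic only past the end of the gene, and the part of this in the upstream share was not tested. Nearest genes of the downstream peaks had a median length of 8.45 and 7.91 kb, and those of the upstream peaks 36.6 and 26.6 kb. Beyond 50 kb, 51.8% and 54.9% of intergenic peaks outside repeats were upstream. Within 5 kb, 33 of 38 inguinal and 113 of 124 perigonadal peaks were upstream, and between 20 and 50 kb 64.4% and 71.6%.

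The median distance was 18.1 kb in inguinal and 15.4 kb in perigonadal fat. To the nearest start of any gene in the RefSeq promoter table it was 15.9 and 12.9 kb. That covers the 276 and 556 peaks with a start on their chromosome. The bands that follow use the authors' distances. The band from 1 to 5 kb held 13.4% and 21.5% of the peaks, that from 5 to 10 kb 12.7% and 15.2%, that from 10 to 20 kb 27.2% and 22.5%, and that from 20 to 50 kb 46.6% and 40.8%. Height varied little with distance. Across peaks, Spearman's rho of score and distance was -0.06 in inguinal and 0.03 in perigonadal fat, given as a description. Median scores of the bands ran from 9.03 to 10.5 and from 8.82 to 9.70. In the inguinal list 19 of 38 peaks within 5 kb had a partner (50%, 34.8 to 65.2%) and 37.9% between 20 and 50 kb, and in the perigonadal list 15.3% and 19.9%, with overlapping intervals in each.

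**Figure D4:**
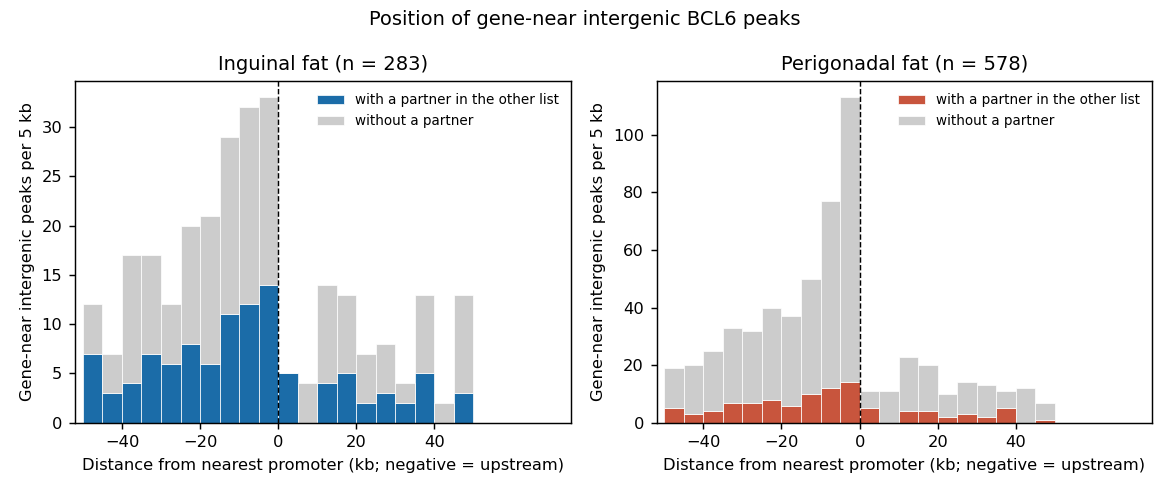
Number of gene-near intergenic peaks per 5 kb (y axis) by distance from the nearest promoter (x axis, kb, negative is upstream), inguinal left and perigonadal right. Coloured parts of the bars have a partner in the other list and grey parts have none; in both depots the bars are tallest just upstream of the promoter, and the bars just downstream are low. No peak lies within 1 kb, by the rule.

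The nearest pairs lay just beyond 1 kb. They were the Dpp9 site, a site 1.06 kb upstream of Pdcd4, a translation inhibitor gene, with 15.0 and 7.93, and a site 1.14 kb upstream of Tlr8, a receptor for RNA on chromosome X, with 15.0 and 20.3. By the authors' distances the farthest were near Sparc at 47.8 kb, with 12.8 and 21.2, near Sphkap at 47.8 kb, with 12.8 and 8.82, and near Gtf2f2 at 48.7 kb, with 15.0 and 14.1. The RefSeq promoter table holds nearer starts, of any gene, for the Sparc and Gtf2f2 pairs. Its nearest start lay 11979 bp from the inguinal Sparc peak, 26042 bp from that of Gtf2f2 and 47762 bp from that of Sphkap.

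In inguinal fat 9 of 283 peaks (3.18%) had another of the group within 10 kb, and in perigonadal fat 16 of 578 (2.77%). With any peak of the list counted as a neighbour, the numbers were 11 (3.89%) and 38 (6.57%). The spacing of other peaks was not computed, so these counts describe the group alone. Nearest genes with 2 or more peaks of the group numbered 12 of 270 and 21 of 556. The inguinal count includes the microRNA gene name Mir1957a, whose 2 peaks lie on different chromosomes, 6 and 8. Nabp1, which encodes a single-stranded DNA-binding protein, had 3 perigonadal peaks 36.3 and 20.5 kb upstream and 28.5 kb downstream, with 15.0, 26.4 and 7.93, and the one at 20.5 kb was shared, with 27.8 in inguinal fat.

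Some genes of fat and vessel biology were among those with 2 peaks, chosen for mention after their values were seen. Aldh1a3, a retinoic acid-producing dehydrogenase gene, had both of its sites, 15.6 and 37.7 kb upstream, in both depots, with 11.3 and 9.03 in inguinal and 22.9 and 10.6 in perigonadal fat. Vegfa, a vessel growth factor gene, had perigonadal peaks 21.2 kb upstream with 22.9, shared with 15.0 in inguinal fat, and 19.4 kb downstream with 8.82. Por, the cytochrome P450 reductase gene, had inguinal peaks 22.0 and 16.1 kb upstream with 18.8 and 9.78, the first shared with 50.2 in perigonadal fat.

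A peak on the promoter of the same nearest gene was listed for 2 of 270 genes in inguinal and 8 of 556 in perigonadal fat. Cish, an inhibitor of STAT5 signalling, had one in each depot, with promoter scores of 65.4 and 85.5 beside 21.8 and 21.2 at the intergenic site. Nrp1, a co-receptor for vessel growth factors, had an inguinal promoter peak of 10.5 beside 21.8 at 21.9 kb upstream, a site that scored 19.4 in perigonadal fat. Intronic peaks of the same gene were found for 13 and 58 genes. The same shares for genes nearest to other peaks were not computed, so these counts describe the group alone.

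Which genes lie nearest was asked with 17 lists of 316 entries for fat cell functions, known BCL6 biology and other cell types of fat. Of 21887 protein-coding genes, 227 (1.04%) were nearest to such a peak in inguinal fat, 466 (2.13%) in perigonadal fat and 95 (0.434%) in both. The 95 were 41.9% of the inguinal and 20.4% of the perigonadal genes. The nearest gene was protein-coding for 84.1% and 84.3% of peaks by the authors' gene type, and non-coding for 15.2% and 14.7%. The counts below are descriptions of these libraries beside those background shares. The lists were written with earlier results of these data known, so a share or score above background in a list is not a test.

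The list of growth hormone, IGF and STAT5 pathway genes had 3 of 18 near such a peak in inguinal (16.7%) and 4 of 18 in perigonadal fat (22.2%), 5 in all. The median scores of their 3 and 4 peaks were 12.8 and 23.8, beside 9.78 and 9.70 for all peaks of the group. Among receptors, Ghr, the growth hormone receptor gene, had a shared site 35.1 kb upstream with 12.8 (7.45 to 20.5) in inguinal and 26.4 in perigonadal fat (chr15:3618371-3618573). That distance is the authors'. The nearest start of any gene in the RefSeq promoter table lay 3566 bp from the inguinal and 3532 bp from the perigonadal Ghr peak. Lepr, the leptin receptor gene, had a perigonadal peak of 22.0 at 34.6 kb upstream (14.3 to 32.5). Among feedback inhibitors, Cish and Socs3 had the values given above. Bcl6 itself had an inguinal peak 23.6 kb upstream, of 10.5 (5.76 to 17.7). Within 20 kb by the authors' distances 1 gene of this list was left in each depot, and with peaks that had a partner 2.

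Insulin signalling genes counted 2 of 22 in each depot. The insulin receptor gene Insr had a shared site 34.6 kb upstream with 13.5 and 15.9, and a perigonadal peak of 8.82 at 3.98 kb. Irs1, an adaptor below the receptor, had a perigonadal peak of 8.82 at 2.84 kb upstream, and Trib1, a pseudokinase gene, an inguinal peak of 7.52. The last 3 rested on 10 tags each.

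Clock genes counted 1 of 19 in inguinal and 3 of 19 in perigonadal fat, and 0 had a partner. Besides Per1, Nr1d1, which encodes the repressor REV-ERB alpha, had a perigonadal peak of 15.9 at 1.58 kb upstream (9.40 to 25.1). The activator gene Arntl had 9.70 at 18.8 kb upstream. In inguinal fat Npas2, another activator gene, had 9.03 at 2.82 kb upstream.

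Lipid synthesis genes counted 1 of 22 and 3 of 22. Insig1, which encodes a brake on sterol-driven transcription, had a shared site 33.6 kb upstream with 13.5 (8.02 to 21.4) and 29.1. Acacb, an acetyl-CoA carboxylase gene, and Fads1, a fatty acid desaturase gene, had perigonadal peaks of 12.3 at 3.84 kb and 11.5 at 1.52 kb upstream. Lipolysis and oxidation genes counted 1 of 22 and 2 of 22. Prkar2b, a regulatory subunit of protein kinase A, had perigonadal peaks of 16.7 and 17.6 at 34.0 and 47.9 kb upstream. Ppargc1b, a coactivator gene, had an inguinal peak of 15.0 at 41.8 kb, and Cpt1a, which brings fatty acids into mitochondria, a perigonadal one of 8.82 at 2.93 kb.

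Extracellular matrix genes counted 2 of 20 and 3 of 20. The Sparc sites are given above. Col6a2, a collagen VI gene, had a shared site 44.4 kb upstream with 17.3 and 16.7, and Col3a1 a perigonadal peak of 7.93. The RefSeq promoter table places a start of any gene 9721 bp from the inguinal and 9731 bp from the perigonadal Col6a2 peak. Only the Sparc and Col6a2 genes had a partner, and within 20 kb by the authors' distances 0 of 20 were left in inguinal and 1 of 20 in perigonadal fat.

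Early response and Kruppel-like factor genes counted 3 of 24 and 2 of 24. Ier2 had a shared site 2.59 kb downstream with 17.3 and 15.0, Klf10 and Klf5 had inguinal peaks of 10.5 and 7.52, and Fos a perigonadal one of 8.82. BCL6 targets of lymphocytes counted 1 of 20 and 2 of 20, with a shared site at Myc, a growth-driving factor, of 9.03 at 1.71 kb upstream and 13.2, and a perigonadal peak of 10.6 near Irf4. Adipocyte identity genes counted 1 of 20 in each, Rxra with 8.27 in inguinal and Cebpb with 8.82 in perigonadal fat. Inflammatory genes counted 1 of 22 in each, the shared site 5.32 kb upstream of the chemokine gene Cxcl5 with 9.03 and 8.82. TGF-beta and BMP genes counted 0 of 24 and 1 of 24, Smad3 with 12.3.

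**Figure D5:**
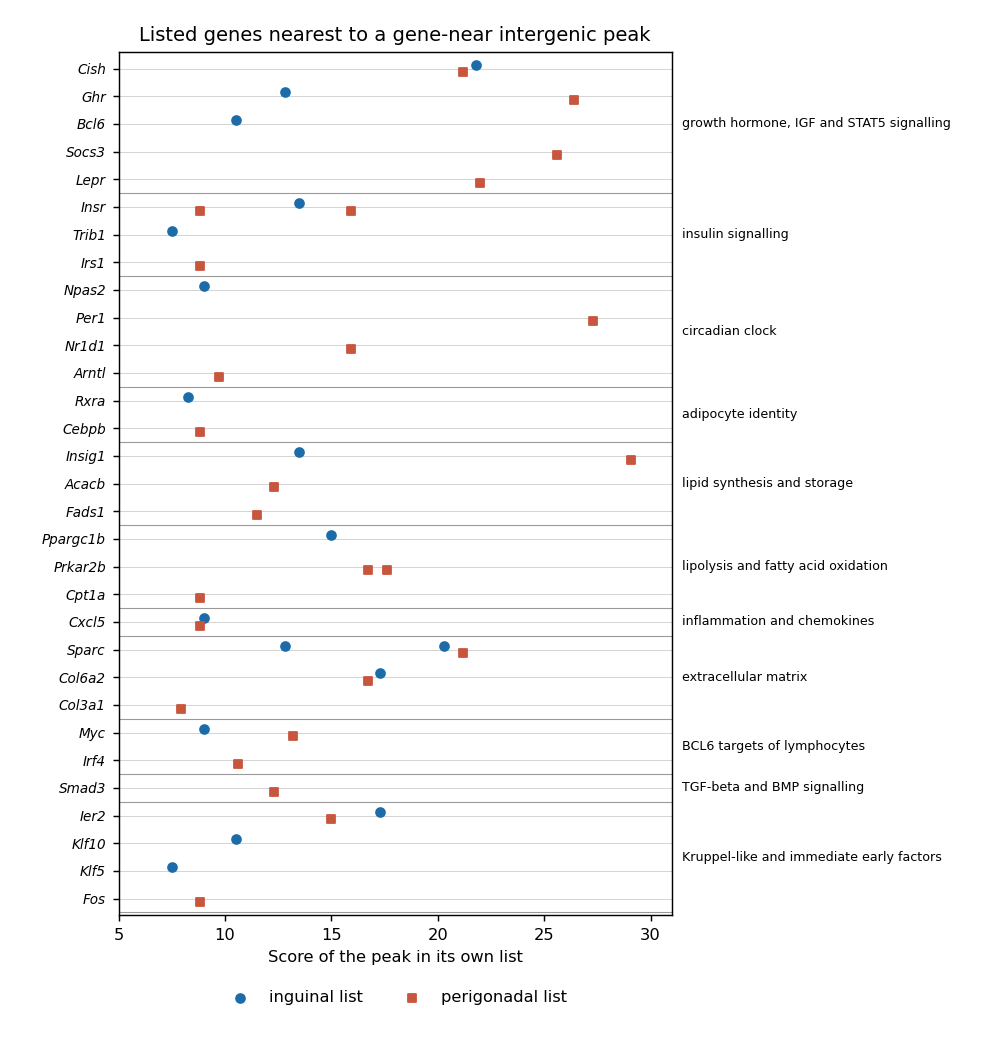
Score of each gene-near intergenic peak (x axis) whose nearest gene is in 1 of the gene lists (rows, with the list at the right), inguinal as circles and perigonadal as squares. Insig1, Per1 and Ghr hold the highest perigonadal scores (29.1, 27.3 and 26.4) and Cish the highest inguinal score (21.8).

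The other lists had 0 genes near such a peak in both depots. They were 18 genes of corepressors and selected deacetylases and the markers of preadipocytes and fibroblasts (13 genes), macrophages (14), lymphocytes (14), endothelium (12) and epithelium (12). At the background shares of 1.04% and 2.13%, a list of this length would hold less than 1 gene. Genes of these kinds outside the lists, looked up after the values were seen, did lie near such peaks. The deacetylase gene Hdac6 had a shared site 8.86 kb upstream (inguinal score 9.03, perigonadal score 12.3). Hdac11 had a perigonadal peak of 12.3 at 24.7 kb. Of genes known from macrophages, Mpeg1 and Fcgr4 had inguinal peaks of 12 each, and Clec10a an inguinal peak of 8.27. Lyz1, a lysozyme gene that is not the listed macrophage marker Lyz2, had a shared site 20.5 kb upstream with 14.3 and 23.8.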

How the data were processed

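Chromatin immunoprecipitation libraries of BCL6 from inguinal and perigonadal adipocyte nuclei were used, 1 a depot. Tissue was fixed with disuccinimidyl glutarate for 30 minutes and with 1% formaldehyde for 10 minutes, per the labels' protocols. The submitters' processing notes name Bowtie 1.2, HOMER and the build mm10. Each list was annotated with HOMER, per the file headers. The inguinal header carries a false discovery rate of 0.001 in its list's name and the perigonadal one names no threshold, so the lists may differ in stringency. The deposited peak score is the authors' value. Scores were whole multiples of 0.752 (inguinal) and 0.881 (perigonadal), with deviations of at most 0.363% of the score, and these steps were read as 1 tag. The library total is not given, so the depth is unknown. The deposited focus ratio is a fraction and is given only as a median. Distances are the authors', and for some peaks a start in the RefSeq promoter table lay nearer.

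Members were chosen by annotation, repeat and distance columns. Shares carry Wilson, differences Newcombe and scores exact Poisson 95% intervals, which cover counting error only. With 1 library a depot no test was possible. Genes were matched by Entrez number to the RefSeq table of GRCm38.p6 (281 of 283 and 578 of 578 peaks). The RefSeq promoter table used here does not hold every gene, so counts of peaks near a start are lower limits. Named were the 12 pairs with the highest lower score, the 8 tallest peaks of each list without a partner, listed genes, genes with 3 peaks, and the 3 nearest and 3 farthest pairs; others were named after their values were seen. Results for some genes are not reported here. The members and lists were chosen with earlier results of these data known. Motif shares over whole peaks, which need a genome, were not run. Python 3.11.15, pandas 2.3.3, scipy 1.17.1 and matplotlib 3.10.9 were used, and the overlap and interval code was tested on simulated data. Alternatives changed the limits, repeats, list length, overlap, gene assignment, spacing and motif.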

Additional observations from a re-analysis of the deposited data

How the results depend on the processing

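The share of the list that the group makes up follows its definition. It was 8.46% in inguinal and 8.65% in perigonadal fat with an upper limit of 20 kb, 21.3% and 19.5% with 100 kb, 13.7% and 11.5% with a lower limit of 5 kb, 21.7% and 21.0% with repeats kept, and 17.2% in the perigonadal list held to 1785 peaks. The share with a partner was 58.6% and 30.8% among scores above the list's median, and 31.3% for the perigonadal list held to 1785 peaks; it stayed within the interval of the reported value under other overlap rules and limits. With repeats kept, 28.4% and 28.5% of peaks passed the third quartile. Nearest protein-coding genes numbered 130 and 288 within 20 kb, 367 and 790 when either flanking gene within 50 kb counted, 90 and 88 for peaks with a partner, and 132 and 248 above the median score. Members near each other numbered 4 and 10 within 5 kb and 19 and 28 within 20 kb. The exact motif was in 0 windows and the looser one in 4. Of the counts by gene list under these alternatives, which are small, 42 of 136 moved by over 1.5 times. The 136 include lists that had 0 genes and stayed at 0, so among lists with a gene the share that moved was larger. The upstream share and the relation of height to distance stayed within their intervals under the alternatives run. Low peaks rest on about 10 tags, which limits how well a single site is known. No paired analysis was possible because each depot had a single BCL6 library. The cause of these shifts was not tested.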

Other observations

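Peaks of the group inside a RefSeq gene had a median score of 9.78 in inguinal and 9.70 in perigonadal fat, and those outside 10.5 and 9.70. A partner was present for 33.3% and 16.9% of those inside and for 39.4% and 17.9% of those outside. These values were not tested.

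Few of the peaks lay in annotated CpG islands, 4 of 283 in inguinal and 11 of 578 in perigonadal fat, of which 3 had a partner in each list. On chromosome X lay 5 and 8, with 3 partners in each. The median focus ratio, HOMER's measure of how tightly tags lie around the centre, was 0.815 in inguinal and 0.833 in perigonadal fat, and 0.812 and 0.833 in the rest of the lists. Among tall pairs outside the rule for named genes, Socs5, a further cytokine signalling inhibitor gene, had a site 34.5 kb from its promoter with 24.1 in inguinal and 22.0 in perigonadal fat. It was chosen after its values were seen.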
